A study of Homo sapiens with 12 samples.

Results

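The insulin-like growth factor (IGF) binding proteins IGFBP2, IGFBP3, IGFBP4, IGFBP5, IGFBP6 and IGFBP7 and the receptors IGF1R and IGF2R were followed in MDA-MB-231 cells and Hs-578T cells, 2 established lines from triple-negative breast cancer. The 8 genes were taken by symbol from the 32152 genes with deposited values, and all 8 have an entry. RNA was sequenced from 12 libraries, 2 for each of 6 groups: parental controls, libraries labelled ERK5-ko and libraries labelled MEK5DD of each line. The comparisons ask how RNA of these genes differs from the parental control of the same line when the MAP kinase ERK5 was targeted or its activator MEK5 was made constitutively active, and whether that difference is the same in both lines.

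Libraries labelled ERK5-ko came from cells edited with CRISPR/Cas9 and guides against MAPK7, the gene of ERK5. The MDA-MB-231 cells of this kind were 1 surviving clone, and which Hs-578T clone was sequenced is not given in the sources used here. MEK5DD is an always-active form of MEK5, and the promoter that drives it is not given in the sources used here either. All groups were grown in medium with serum and added insulin, itself a ligand of this system at high dose, and were harvested at 70% confluence. The replicates of each group carry consecutive passage numbers in the labels, and whether they came from separate cultures is not given in the sources used here. Parental MDA-MB-231 cells were at passages 29 and 30, those labelled ERK5-ko at 7 and 8, and those labelled MEK5DD at 10 and 11. Parental Hs-578T cells were at passages 83 and 84, and both engineered groups at 8 and 9, so that passage and label cannot be told apart. The p-values measure only the spread between these libraries.

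IGF1 and IGF2 are secreted growth factors that signal through the tyrosine kinase IGF1R to the PI3K-AKT and ERK1/2 pathways. IGF2R is the cation-independent mannose 6-phosphate receptor, which takes up IGF2 for degradation in lysosomes without signalling as a kinase. The IGFBPs bind IGFs outside the cell, where they can withhold the ligand from the receptor, carry it or release it when proteases cleave them, and several act on cells without IGF. IGFBP3, IGFBP4, IGFBP5 and IGFBP6 bind IGFs with high affinity, whereas IGFBP7, a matrix-associated protein, binds them weakly.

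RNA of the ligands was at or near the limit of detection, so binding proteins and receptors were measured in cells that made little IGF RNA. IGF1 had 0 reads in all 6 MDA-MB-231 libraries and at most 8 reads in a Hs-578T library. IGF2 had at most 31 reads in any library, in Hs-578T labelled ERK5-ko replicate 1, where its RPKM was 0.379. RPKM scales the reads on a gene to the length of the gene and to the size of the library.

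The libraries held between 20248162 and 27791195 reads. The libraries labelled ERK5-ko did not have less MAPK7 RNA than the parental ones, at a log2 fold change of 0.29 for MDA-MB-231 cells (adjusted p = 0.0709, limma) and 0.26 for Hs-578T cells (adjusted p = 0.0624), so directions below refer to the labels. By Western blot, the study reports ERK5 protein as knocked out in both lines, and RNA values do not measure protein. MAP2K5, the gene of MEK5, rose by 3.77 on the log2 scale in MDA-MB-231 MEK5DD and by 0.50 in Hs-578T MEK5DD. ESR1 and PGR, the hormone receptors that triple-negative tumours lack, stayed at or under 0.12 and 0.348 RPKM in all 12 libraries, while ERBB2, the remaining gene of that definition, had 27.8 to 56.8 RPKM. Of the markers of other cell types, PTPRC and CD3E of leukocytes stayed at or under 0.396 and 0.0247 RPKM and CDH5 and VWF of endothelium at or under 0.0259 and 0.214, while CD14 and LYZ reached 2.15 and 1.5 and PECAM1 and KDR 6.48 and 2.51. The summed level of 5 epithelial markers was higher in libraries labelled ERK5-ko, at 2610 to 2620 RPKM against 1550 to 1650 in MDA-MB-231 parental controls and at 577 to 626 against 189 to 265 in those of Hs-578T. In MEK5DD it was 1170 to 1220 in MDA-MB-231 and 229 to 254 in Hs-578T. Of these markers CDH1 stayed at or under 1.16 RPKM in all 12 libraries, whereas KRT8 reached 1150. The sum of 5 mesenchymal markers was higher in MEK5DD, at 3540 to 3610 RPKM against 1690 to 1830 in MDA-MB-231 parental controls and at 19500 to 19600 against 13600 to 14900 in those of Hs-578T. In libraries labelled ERK5-ko this sum was 1650 to 1710 RPKM in MDA-MB-231, overlapping the parental controls, and 13200 to 13300 in Hs-578T. The sum of 3 adipocyte markers was 25.9 to 26.3 RPKM in Hs-578T labelled ERK5-ko against 3.02 to 3.24 in its parental controls, nearly all of it FABP4, with ADIPOQ at or under 0.018. The part of these marker shifts in the results below was not tested.

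RefSeq promoter windows, 250 bases before to 50 after the annotated start, were found for 7 of the 8 genes. The 250 bases before the start are shown for IGFBP3, IGFBP4 and IGFBP5, whose RNA followed 3 different patterns across the groups. Capitals mark letters of a TATAAA or GGGCGG motif on either strand.
IGFBP3, chr7:45921273-45921522, GRCh38.p14, minus strand: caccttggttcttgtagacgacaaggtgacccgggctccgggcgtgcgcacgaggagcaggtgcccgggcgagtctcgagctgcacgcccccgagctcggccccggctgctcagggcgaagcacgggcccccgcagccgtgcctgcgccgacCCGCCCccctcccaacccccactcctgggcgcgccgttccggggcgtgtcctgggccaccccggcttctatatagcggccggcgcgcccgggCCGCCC
IGFBP4, chr17:40443200-40443449, GRCh38.p14, plus strand: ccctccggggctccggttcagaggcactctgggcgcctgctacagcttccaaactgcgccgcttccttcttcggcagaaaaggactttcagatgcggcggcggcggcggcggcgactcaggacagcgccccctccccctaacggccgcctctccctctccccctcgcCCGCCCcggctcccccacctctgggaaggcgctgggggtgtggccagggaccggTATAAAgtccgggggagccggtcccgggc
IGFBP5, chr2:216695550-216695799, GRCh38.p14, minus strand: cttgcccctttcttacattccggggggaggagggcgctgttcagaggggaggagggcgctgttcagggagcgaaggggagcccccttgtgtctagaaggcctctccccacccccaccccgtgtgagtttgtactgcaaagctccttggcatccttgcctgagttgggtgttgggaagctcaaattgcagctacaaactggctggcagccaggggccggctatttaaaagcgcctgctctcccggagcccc
The windows of IGFBP3 and IGFBP4 are rich in GC, at 74.7% and 74.0% over 300 bases with 36 and 30 CG dinucleotides, whereas the window of IGFBP5 has 59.0% GC and 9 CG dinucleotides. The median of all 35116 RefSeq windows is 58.7% GC and 14 CG dinucleotides. TATAAA was found in the IGFBP4 window alone among the 7 genes, starting 29 bases before the gene start, and 11.5% of all windows hold it. GGGCGG, the letters of a GC box, was found in windows of 6 of the 7 genes, IGFBP5 being without it, and in 45.0% of all windows. CCAAT was found in 1 of the 3 windows of IGFBP2 and in 34.6% of all windows. TGANTCA, the letters of an AP-1 site, was found in none of the 7 genes and in 7.71% of all windows. The consensus of MEF2, a transcription factor family that ERK5 phosphorylates, was likewise found in none of them and in 1.86% of all windows. Motifs were searched on both strands, and a match or its lack describes these letters only.

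The parental lines differed in the levels of members of the family. MDA-MB-231 carried mainly IGFBP4 RNA, at 593 ± 4.98 RPKM (SD, n = 2), and IGFBP7 RNA, at 409 ± 19.9. Hs-578T carried mainly IGFBP7 RNA, at 1240 ± 71.3 RPKM (SD, n = 2), then IGFBP4 at 696 ± 12.7 and IGFBP3 at 470 ± 14.7. The IGFBP RNA of Hs-578T thus summed to 2526 and 2421 RPKM in the parental replicates, and that of MDA-MB-231 to 1100 and 1078, with IGFBP1 included.

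Between the parental controls, 6 of the 7 tested genes passed the test and were called, 4 higher and 2 lower in Hs-578T. IGFBP5 is among the 4 but was tested only because it is expressed in Hs-578T, so its difference says nothing beyond that. By the thresholds of the study, a call needs an adjusted p under 0.05 together with a fold above 1.5 (called higher) or below 0.5 (called lower). Among all 13737 genes tested, 23.5% were called higher and 20.7% lower in Hs-578T, and 77.4% passed on adjusted p, so that a line difference is common. IGFBP3 had 480 and 460 RPKM in Hs-578T against 40.4 and 40.8 in MDA-MB-231, a difference of 11.6-fold (log2 fold change 3.52, SE 0.102, adjusted p = 3.39e-11, limma). IGFBP7 was 3.04-fold and IGFBP6 1.89-fold higher in Hs-578T (adjusted p = 1.08e-06 and 1.3e-05). IGFBP4 did not pass, at a log2 fold change of 0.23 (SE 0.119, adjusted p = 0.0945), and passed under median-ratio scaling (0.47, adjusted p = 0.00635). IGF1R was 2.47-fold and IGF2R 2.0-fold lower in Hs-578T (adjusted p = 4.86e-05 and 0.00301). The median gene was lower in Hs-578T by a log2 value of -0.19 under this scaling and at 0.02 under median-ratio scaling, where IGF2R still passed on adjusted p (0.0126) but was no longer called, at -0.83. Without Hs-578T parental replicate 1 its value was -0.61 (adjusted p = 0.0303, limma).

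**Figure D1:**
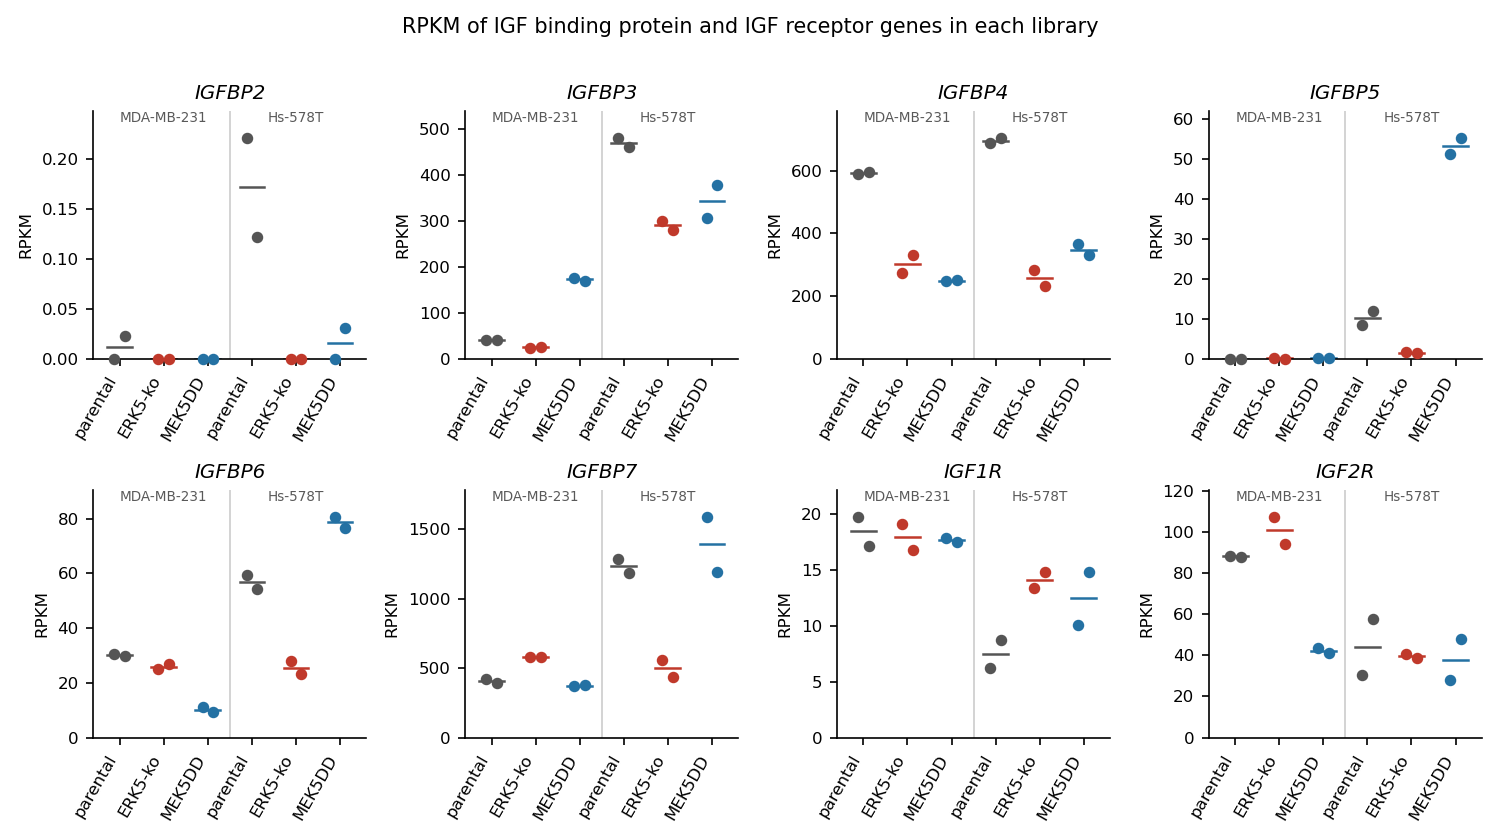
RPKM of the 8 genes (vertical axes, linear, each with its own range) in the 12 libraries, 2 points per group and a line at the group mean, for MDA-MB-231 on the left and Hs-578T on the right of each panel. IGFBP4 is lower than its parental control in every engineered group, at 230.6 to 365 RPKM against 589 to 705, whereas IGFBP5 in Hs-578T falls to 1.33 and 1.67 RPKM in libraries labelled ERK5-ko and reaches 51.3 and 55.4 in MEK5DD.

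Against the parental control of the same line, Hs-578T labelled ERK5-ko had the most calls among the 7 tested genes. There IGF1R was called higher and IGFBP4, IGFBP5, IGFBP6 and IGFBP7 were called lower, 1 and 4 genes, against 9.35% and 3.27% of all tested genes, and 6 of 7 passed on adjusted p against 39.4%. The median log2 fold change of the 7 genes was -1.14 in that comparison and that of all genes 0.01. In MDA-MB-231 labelled ERK5-ko, limma called 0 of 7, against 2.80% of all genes called higher and 1.07% lower, and limma voom on the recovered reads also called 0. In that comparison IGFBP3, IGFBP4 and IGFBP7 passed on adjusted p, 3 of 7 against 17.3%, and the same number had an unadjusted p under 0.05. The pass of IGFBP7 was lost without any 1 of the 6 MDA-MB-231 libraries. In these bulk cultures, fewer cells that make a transcript and less RNA per cell cannot be told apart.

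In MEK5DD, the calls of the lines were made up differently. In MDA-MB-231, IGFBP3 was called higher and IGFBP4, IGFBP6 and IGF2R lower, 1 and 3 genes, against 7.64% and 6.31% of all genes, and the same 4 of 7 passed on adjusted p against 41.3%. In Hs-578T, IGFBP5 and IGF1R were called higher and IGFBP4 lower, 2 and 1 genes, against 2.90% and 1.49%. Together with IGFBP3 and IGFBP6, which did not pass the fold threshold, 5 of 7 passed on adjusted p there, against 23.4%. Fitted in Hs-578T MEK5DD and its parental control alone, 1 gene remained called, IGFBP5, and IGFBP3, IGFBP4, IGFBP6 and IGF1R did not pass (adjusted p = 0.231, 0.07, 0.145 and 0.265, limma).

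The change itself was compared between the lines over the 6 genes that reached the filter level of 0.5 RPKM in at least 2 libraries of each line, which leaves out IGFBP5. In libraries labelled ERK5-ko it differed for 4 of 6, IGFBP4, IGFBP6, IGFBP7 and IGF1R, against 38.9% of the 11920 genes at that level in both lines and 39.8% of all tested genes. In MEK5DD it differed for 3 of 6, IGFBP3, IGFBP6 and IGF1R, against 38.4% and 39.6%. A difference between lines was tested at an adjusted p under 0.05 as the MDA-MB-231 change minus the Hs-578T change.

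**Figure D2:**
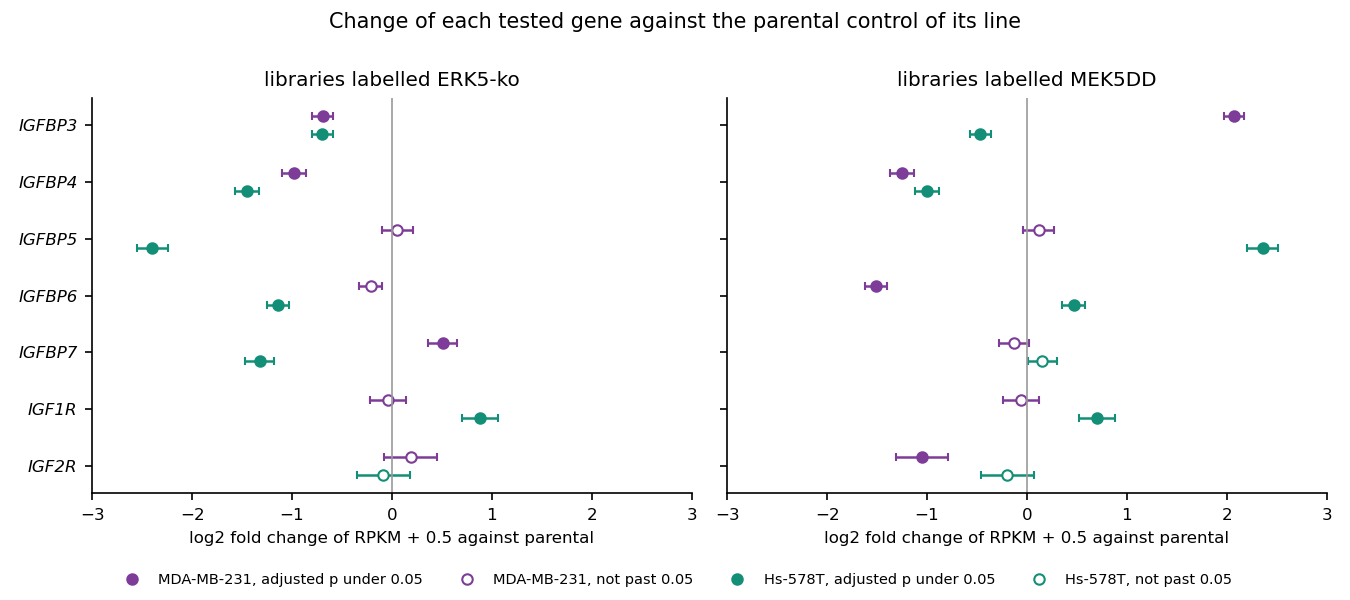
Log2 fold change of RPKM + 0.5 (horizontal axis) with its standard error (bars) for the 7 tested genes against the parental control of the same line, in libraries labelled ERK5-ko (left) and MEK5DD (right), with filled points at an adjusted p under 0.05. IGFBP4 lies left of 0 in all 4 comparisons, in MEK5DD IGFBP3 is at 2.07 for MDA-MB-231 cells but at -0.47 for Hs-578T cells, and IGFBP5 in Hs-578T is at -2.40 and 2.36.

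IGFBP4 was the member that fell in both engineered groups of both lines. IGFBP4 (ENSG00000141753.6, chromosome 17, 40443461 to 40457731 of GRCh38, plus strand) encodes an inhibitory binding protein that the protease PAPPA cleaves. In MDA-MB-231 its RPKM was 589 and 596 in the parental libraries, 273 and 330 in libraries labelled ERK5-ko, and 247 and 251 in MEK5DD. In Hs-578T it was 687 and 705 in the parental libraries, 282 and 230.6 in libraries labelled ERK5-ko, and 365 and 331 in MEK5DD. No engineered library of either line reached the lowest parental value of its line. Such a lack of overlap, here and below, is common with 2 libraries per group. Against parental controls it held for 65.6% and 69.8% of all tested genes in MDA-MB-231 and Hs-578T labelled ERK5-ko. In MEK5DD of the same lines it held for 80.1% and 49.9%. Hs-578T labelled ERK5-ko overlapped both engineered groups of MDA-MB-231, so that these RPKM levels do not separate the lines there.

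On the log2 scale IGFBP4 fell by 0.98 in MDA-MB-231 labelled ERK5-ko (SE 0.119, adjusted p = 0.000287, limma) and fell by 1.45 in Hs-578T labelled ERK5-ko (SE 0.119, adjusted p = 5.16e-06). It fell by 1.25 in MDA-MB-231 MEK5DD (adjusted p = 7.81e-06) and fell by 1.002 in Hs-578T MEK5DD (adjusted p = 0.00021). Each comparison shares the parental controls of its line with the other engineered group. The fold threshold fell between these values: the fitted fold of 0.507 in MDA-MB-231 labelled ERK5-ko was not called, and 0.499 in Hs-578T MEK5DD was. Without MDA-MB-231 ERK5-ko replicate 2 the former was -1.12 and called, and without Hs-578T parental replicate 2 or MEK5DD replicate 2 the latter was -0.98 or -0.93 and not called, nor was it after a correction for transcript length and GC content (-0.87). The change labelled ERK5-ko differed between the lines by 0.47 (SE 0.169, adjusted p = 0.0458), which did not pass in 8 of the 12 fits that left out 1 library (adjusted p 0.0713 to 0.189) and was 0.25 (adjusted p = 0.122) with that correction, and the difference in MEK5DD was -0.25 (SE 0.169, adjusted p = 0.275).

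IGFBP3 fell in both lines under the ERK5-ko label and moved in opposite directions in MEK5DD. IGFBP3 (ENSG00000146674.14, chromosome 7, 45912245 to 45921874, minus strand) encodes the main IGF carrier of serum, which also acts on cells without IGF. In MDA-MB-231 its RPKM was 40.4 and 40.8 in the parental libraries, 24.1 and 25.7 in libraries labelled ERK5-ko, and 176 and 169 in MEK5DD, with no overlap between groups. In Hs-578T it was 480 and 460 in the parental libraries, 299 and 281 in libraries labelled ERK5-ko, and 307 and 378 in MEK5DD, where both engineered groups lay under the parental one and did not overlap each other.

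The change of IGFBP3 labelled ERK5-ko was nearly equal in both lines, at -0.69 for MDA-MB-231 cells (SE 0.102, adjusted p = 0.000954, limma) against -0.70 for Hs-578T cells (SE 0.102, adjusted p = 0.000309). Both passed on adjusted p, and neither passed the fold threshold, since the fitted folds were 0.618 and 0.617. The lines differed by 0.00 on the log2 scale, MDA-MB-231 minus Hs-578T (SE 0.144, adjusted p = 0.99), which does not show that they responded alike. In MEK5DD, IGFBP3 rose 4.25-fold in MDA-MB-231 (log2 fold change 2.07, SE 0.102, adjusted p = 3.45e-08) and fell by 0.47 on the log2 scale in Hs-578T (SE 0.102, adjusted p = 0.0076). The difference between the lines was 2.54 (SE 0.144, adjusted p = 3.14e-07), and in MEK5DD the gap between the lines narrowed from 470 against 40.6 RPKM to 342 ± 50.3 against 173 ± 4.71 (SD, n = 2).

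IGFBP1, which is not among the 8 genes, lies next to IGFBP3 on chromosome 7, 18576 bases away and on the opposite strand, with the ends of both genes facing each other. Its RPKM in MDA-MB-231 was 17.3 and 17.4 in the parental libraries, 7.09 and 8.05 in libraries labelled ERK5-ko, and 60.6 and 65.6 in MEK5DD. IGFBP1 therefore fell and rose in the same comparisons as IGFBP3 in this line, by -1.15 (SE 0.103, adjusted p = 3.56e-05, limma) and 1.83 (SE 0.103, adjusted p = 1.07e-07). It had 0 reads in all 6 Hs-578T libraries. Parental MDA-MB-231 cells, with 1399 reads, had 387-fold more than a floor of 3 reads over the parental Hs-578T group.

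IGFBP5 showed the widest range, and only Hs-578T had enough reads to measure it. IGFBP5 (ENSG00000115461.4, chromosome 2, 216672105 to 216695525, minus strand) encodes a binding protein that attaches to extracellular matrix. In Hs-578T its RPKM was 8.36 and 11.9 in the parental libraries, 1.67 and 1.33 in libraries labelled ERK5-ko, and 51.3 and 55.4 in MEK5DD, with wide gaps between the groups. It fell 6.78-fold in libraries labelled ERK5-ko (log2 fold change -2.40, SE 0.154, adjusted p = 8.14e-07, limma) and rose 5.26-fold in MEK5DD (log2 fold change 2.36, SE 0.154, adjusted p = 4.9e-06). These fitted values include the pseudocount of 0.5 and so understate the fall, and both changes in Hs-578T kept their direction and call under every alternative tried.

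In MDA-MB-231, IGFBP5 had between 2 and 7 reads in each of the 6 libraries, or 0.0289 to 0.101 RPKM, and no fold was read there. The gene passed the filter on low values through Hs-578T alone. The differences between the lines, 2.45 (SE 0.218, adjusted p = 1.21e-05, limma) for libraries labelled ERK5-ko and -2.24 (SE 0.218, adjusted p = 1.68e-05) for MEK5DD, therefore restate the changes in Hs-578T beside a line without measurable RNA. With limma voom on the recovered reads the second was -1.35 (adjusted p = 0.193).

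IGFBP2, which lies 7668 bases from IGFBP5 with its end facing that of IGFBP5, was the scarcest member and was not tested. IGFBP2 (ENSG00000115457.9, chromosome 2, 216632828 to 216664436, plus strand) encodes a binding protein with an integrin-binding motif. It had 8 and 4 reads in the parental Hs-578T libraries, 0 and 0 in libraries labelled ERK5-ko, and 0 and 1 in MEK5DD. Parental Hs-578T cells, with 12 reads, thus had 4.63-fold more IGFBP2 RNA than a floor of 3 reads over the group labelled ERK5-ko. The counting error of the 12 reads is not covered, so this ratio is not a lower bound. The 6 MDA-MB-231 libraries held 1 read in all.

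IGFBP6 was lower in MDA-MB-231 MEK5DD and in Hs-578T labelled ERK5-ko. IGFBP6 (ENSG00000167779.7, chromosome 12, 53097436 to 53102345, plus strand) encodes a binding protein that prefers IGF2 over IGF1. In MDA-MB-231 its RPKM was 30.4 and 29.6 in the parental libraries, 24.9 and 26.7 in libraries labelled ERK5-ko, and 11.01 and 9.39 in MEK5DD. In Hs-578T it was 59.3 and 54.2 in the parental libraries, 27.9 and 23.1 in libraries labelled ERK5-ko, and 80.7 and 76.4 in MEK5DD. The group that stood apart was thus MEK5DD on the low side in MDA-MB-231, whereas in Hs-578T the ERK5-ko label was low and MEK5DD high.

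IGFBP6 fell by 1.51 on the log2 scale in MDA-MB-231 MEK5DD (SE 0.111, adjusted p = 8.87e-07, limma) and by 1.14 in Hs-578T labelled ERK5-ko (SE 0.111, adjusted p = 1.7e-05). It rose by 0.47 in Hs-578T MEK5DD (SE 0.111, adjusted p = 0.0115), under the fold threshold and not past the test without parental replicate 2 (adjusted p = 0.0632), and gave -0.21 in MDA-MB-231 labelled ERK5-ko (SE 0.111, adjusted p = 0.22). The lines differed in both comparisons, by 0.93 for libraries labelled ERK5-ko (SE 0.157, adjusted p = 0.000818) and by -1.98 for MEK5DD (SE 0.157, adjusted p = 3.39e-06). After the length and GC correction the fall in Hs-578T was -0.90 (adjusted p = 1.97e-05), past the test and not past the fold threshold.

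IGFBP7, the member with the highest RPKM in 5 of the 6 groups, fell in Hs-578T labelled ERK5-ko and was higher, with a pass that single libraries decided, in MDA-MB-231 labelled ERK5-ko. IGFBP7 (ENSG00000163453.11, chromosome 4, 57030773 to 57110385, minus strand) encodes a matrix-associated protein of low IGF affinity. In MDA-MB-231 its RPKM was 423 and 394 in the parental libraries, 581 and 581 in libraries labelled ERK5-ko, and 369 and 377 in MEK5DD. In Hs-578T it was 1290 and 1189 in the parental libraries, 559 and 438 in libraries labelled ERK5-ko, and 1592 and 1193 in MEK5DD. The ERK5-ko groups of both lines hence lay nearer to each other than the parental controls did, while MEK5DD overlapped the parental control in Hs-578T.

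IGFBP7 rose by 0.51 on the log2 scale in MDA-MB-231 labelled ERK5-ko (SE 0.147, adjusted p = 0.0345, limma), under the fold threshold, and fell by 1.32 in Hs-578T (SE 0.147, adjusted p = 4.3e-05). The rise did not pass when any 1 of the 6 MDA-MB-231 libraries was left out (0.46 to 0.56, adjusted p 0.0611 to 0.196) or with no filter on low values (adjusted p = 0.0659). The difference between the lines was 1.83 (SE 0.207, adjusted p = 5.77e-05). MEK5DD gave values of -0.13 for MDA-MB-231 cells and 0.15 for Hs-578T cells (adjusted p = 0.525 and 0.495), and the difference between lines was -0.28 (SE 0.207, adjusted p = 0.304), which passed without Hs-578T MEK5DD replicate 2 (-0.49, adjusted p = 0.0391). IGFBP7 shares 396 bases with POLR2B and 624 bases with IGFBP7-AS1 on the opposite strand, and whether the counting used strand is not given in the sources used here.

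**Figure D3:**
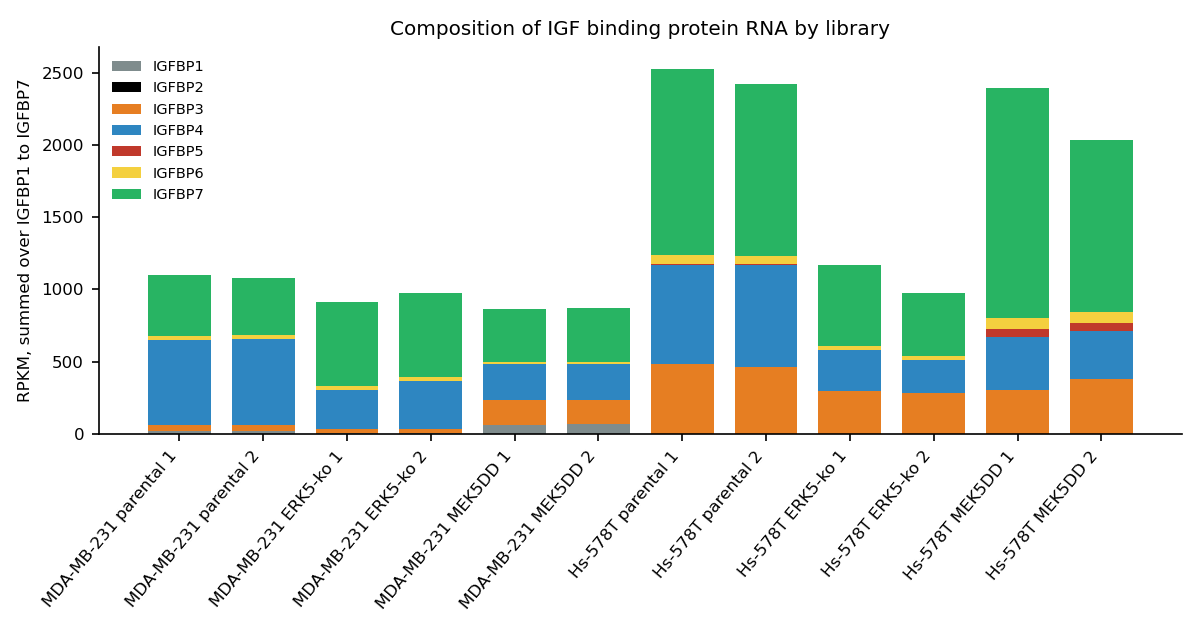
RPKM of IGFBP1 to IGFBP7, stacked, in each of the 12 libraries (vertical axis linear from 0, 1 bar per library). The sum drops to 1170 and 974 RPKM in Hs-578T labelled ERK5-ko from 2526 and 2421 in its parental controls, and the IGFBP4 band shrinks in every engineered group.

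The make-up of IGFBP RNA shifted with these changes, given as a description of shares of the summed RPKM. In MDA-MB-231, IGFBP4 made up 53.6% and 55.3% of the sum in the parental libraries, 30% and 34.0% in libraries labelled ERK5-ko and 28.6% and 28.8% in MEK5DD. The share of IGFBP7 rose to 63.8% and 59.8% in libraries labelled ERK5-ko, and that of IGFBP3 went from 3.67% and 3.79% in parental controls to 20.4% and 19.4% in MEK5DD. The sum itself stayed between 864 and 1100 RPKM in this line. In Hs-578T, the sum was 1170 and 974 RPKM in libraries labelled ERK5-ko and 2395 and 2034 in MEK5DD. There IGFBP6 had a share of 2.24% to 2.38% in both the parental and the ERK5-ko groups, the share of IGFBP3 was 19.0% in both parental libraries and 25.6% and 28.8% in those labelled ERK5-ko, and IGFBP5 reached 2.14% and 2.73% in MEK5DD.

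IGF1R RNA overlapped across the groups of MDA-MB-231 and was higher in both engineered groups of Hs-578T. IGF1R (ENSG00000140443.13, chromosome 15, 98648971 to 98964530, plus strand) encodes the signalling receptor. In MDA-MB-231 its RPKM was 19.8 and 17.2 in the parental libraries, 19.1 and 16.8 in libraries labelled ERK5-ko, and 17.9 and 17.5 in MEK5DD, all overlapping. In Hs-578T it was 6.24 and 8.72 in the parental libraries, 13.4 and 14.8 in libraries labelled ERK5-ko, and 10.1 and 14.9 in MEK5DD. Both engineered groups lay above the parental one, and the MEK5DD replicates were far apart.

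IGF1R rose 1.88-fold in Hs-578T labelled ERK5-ko (log2 fold change 0.89, SE 0.18, adjusted p = 0.00256, limma) and 1.67-fold in MEK5DD (log2 fold change 0.70, SE 0.18, adjusted p = 0.0171). The second did not pass without parental replicate 1 (0.47, adjusted p = 0.107) or without MEK5DD replicate 2 (0.43, adjusted p = 0.0805). In MDA-MB-231 the values were -0.04 and -0.06 (adjusted p = 0.928 and 0.839), and their sign turned under other scalings. The lines differed by -0.93 for libraries labelled ERK5-ko (SE 0.255, adjusted p = 0.0141), which did not pass in 3 of the fits that left out 1 library (adjusted p 0.0587 to 0.062), and by -0.76 for MEK5DD (SE 0.255, adjusted p = 0.035), which did not pass in 8 of them (adjusted p 0.0506 to 0.122).

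IGF2R fell in MDA-MB-231 MEK5DD. IGF2R (ENSG00000197081.12, chromosome 6, 159969099 to 160113507, plus strand) encodes the receptor that clears IGF2 and sorts lysosomal enzymes. In MDA-MB-231 its RPKM was 88.4 and 88.2 in the parental libraries, 108 and 94.2 in libraries labelled ERK5-ko, and 43.8 and 41.0 in MEK5DD. In Hs-578T it was 30.6 and 57.7 in the parental libraries, 40.6 and 38.6 in libraries labelled ERK5-ko, and 28.1 and 47.8 in MEK5DD, and the 3 groups overlapped.

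The fall of IGF2R in MDA-MB-231 MEK5DD was 1.05 on the log2 scale (SE 0.263, adjusted p = 0.0075, limma). It was -1.002 (adjusted p = 0.0513) without MEK5DD replicate 2 and -0.998 (adjusted p = 8.16e-05) after the correction for length and GC content, past the test there and just outside the fold threshold. The values of the other comparisons with the parental controls, 0.19 in MDA-MB-231 labelled ERK5-ko, -0.09 in Hs-578T labelled ERK5-ko and -0.19 in Hs-578T MEK5DD, did not pass (adjusted p 0.646 to 0.821). The difference between the lines in MEK5DD was -0.86 (SE 0.372, adjusted p = 0.0902) and became -0.83 (adjusted p = 0.00401) with the length and GC correction. It passed too without Hs-578T parental replicate 2 (-1.31, adjusted p = 0.0051) or Hs-578T MEK5DD replicate 1 (-1.23, adjusted p = 0.0151). In libraries labelled ERK5-ko the difference was 0.27 (adjusted p = 0.579) and became 0.61 (adjusted p = 0.0218) with the correction. IGF2R shares 3131 bases with AL353625.1 on its own strand, an entry with values of its own, so reads there could be counted to either.

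Both receptors have long transcripts, and the Hs-578T replicates differed with transcript length. Among 1184 tested genes with a longest transcript over 8 kb, the median of replicate 1 minus replicate 2 was -0.338 on the log2 scale in Hs-578T parental controls and -0.337 in MEK5DD. Among 2477 genes under 2 kb it was 0.168 and 0.182. The longest transcripts of IGF1R and IGF2R are 12235 and 14044 bases, and both genes were lower in replicate 1 of these groups, whereas IGFBP7, at 1427 bases, was higher there. In the other 4 groups the median for genes over 8 kb lay between -0.049 and 0.158. The part of transcript length in the receptor values was tested only through the correction given above.

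**Figure D4:**
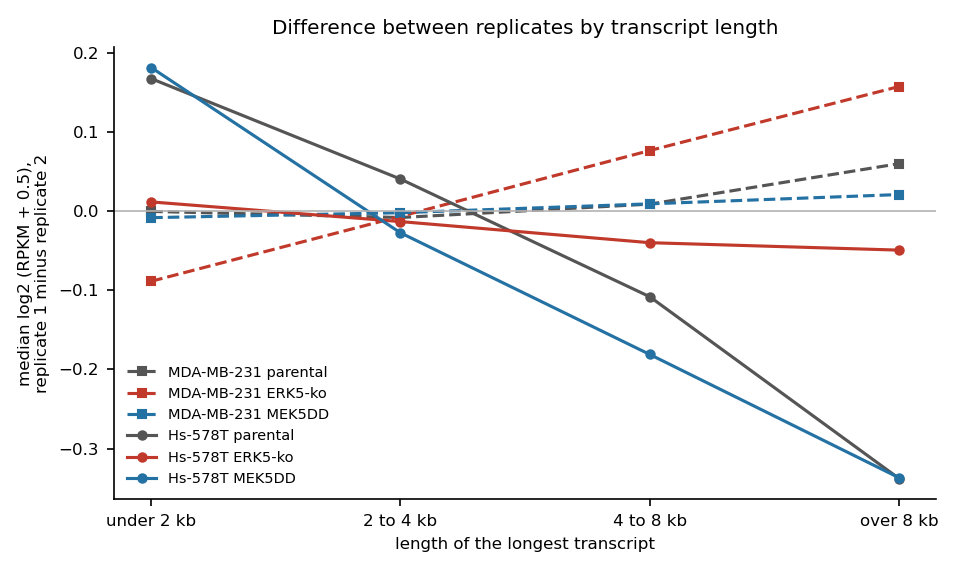
Median difference between replicate 1 and replicate 2 in log2(RPKM + 0.5) (vertical axis) for 4 classes of longest-transcript length (horizontal axis), 1 line per group. The lines of Hs-578T parental controls and MEK5DD run from 0.168 and 0.182 under 2 kb to -0.338 and -0.337 over 8 kb, and the other 4 stay between -0.0884 and 0.158.

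The order of levels among the 8 genes depends on the gene length in the RPKM. Each gene's length was recovered with its reads and lay within 5% of the mean length of its GENCODE 29 transcripts for 89.6% of 11635 well-covered protein-coding genes, against 7.06% for the longest transcript. The length used was 1970 bases for IGF1R and 3253 for IGF2R, against 1172 for IGFBP3, 2492 for IGFBP5 and 2196 for IGFBP4. Rescaled to the longest transcript, IGF1R in MDA-MB-231 parental controls went from 18.5 ± 1.83 to 2.98 ± 0.295 RPKM (SD, n = 2) and IGF2R from 88.3 ± 0.148 to 20.4 ± 0.0342. IGF2R then ranked below IGFBP6, at 23.2 ± 0.41, whereas the deposited values rank it above. IGFBP4 and IGFBP7 held the first and second rank in this group on both scales, and IGFBP7 ranked first in all 3 Hs-578T groups on both. The length divides every library of a gene alike, so ratios of its RPKM between groups do not change with the length used. The log2 fold changes include the pseudocount, so those of genes with low values do shift with it. This concerns the divisor only, not the differences between libraries that go with transcript length, given above.

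Across the 6 groups, the order of RPKM levels followed the line for some members and not for others. All 3 Hs-578T groups of IGFBP3 lay above all 3 of MDA-MB-231, with MDA-MB-231 MEK5DD closest, at 173 ± 4.71 against 290 ± 13.1 RPKM (SD, n = 2) in Hs-578T labelled ERK5-ko. IGFBP5 had the same split. IGFBP6 did not, since Hs-578T labelled ERK5-ko, at 25.5 ± 3.33 RPKM, overlapped MDA-MB-231 labelled ERK5-ko, at 25.8 ± 1.3. IGFBP7 in Hs-578T labelled ERK5-ko, at 499 ± 85.7 RPKM, lay under MDA-MB-231 labelled ERK5-ko, at 581 ± 0.442. For IGF1R the order was turned, with every MDA-MB-231 library above every Hs-578T library. For IGF2R, MDA-MB-231 MEK5DD, at 42.4 ± 2.03 RPKM, lay within the range of the Hs-578T groups.

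The genes whose pattern was most like that of a member were found by the Pearson correlation of log2(RPKM + 0.5) over 12 libraries, each line centred on its own mean. These points share 6 groups of replicates, and r is a description. They were PAQR4 and EFNB1 for IGFBP3 (r = 0.988 for both), AEBP1 and QPRT for IGFBP5 (0.995 for both) and PLXDC1 and DNPH1 for IGFBP6 (0.986 and 0.978). For IGFBP7 they were BDH2 and ITM2B (0.983 and 0.98), and for IGFBP4 CPAMD8 and GLMP, at lower values (0.953 and 0.918). For the receptors they were COL6A6 and BVES with IGF1R (0.971 and 0.958) and KANK2 and ADCY9 with IGF2R (0.976 and 0.972).

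Proteases that cleave IGFBPs, and the stanniocalcins, inhibitors of PAPPA, formed a list of 7 genes, all tested. In MDA-MB-231 labelled ERK5-ko, 1 was called higher and 2 lower, against 2.80% and 1.07% of all tested genes. PAPPA, which cleaves IGFBP4, fell from 1.87 ± 0.362 to 0.609 ± 0.213 RPKM (SD, n = 2, log2 fold change -1.10, adjusted p = 0.00836, limma), so that both the protease and its substrate fell. ADAM12, which cleaves IGFBP3 and IGFBP5, fell by 1.32 on the log2 scale from only 0.798 RPKM, and ADAM28, which cleaves IGFBP3, rose by 0.78. In MDA-MB-231 MEK5DD, PAPPA rose by 1.08 to 4.49 RPKM (adjusted p = 0.00321) while IGFBP4 fell, and ADAM28 fell by 2.86 from 4.15 to 0.14 RPKM. In Hs-578T 1 was called in libraries labelled ERK5-ko and 1 in MEK5DD, against 12.6% and 4.38% of all tested genes called in either direction. The first was ADAM28, higher at 0.71, from 0.32 ± 0.17 to 0.829 ± 0.12 RPKM (SD, n = 2). Its parental level lies under the filter level of 0.5 RPKM, where the pseudocount weighs on the change. The second was PAPPA2, which cleaves IGFBP3 and IGFBP5, higher at 0.97.

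Between the parental lines, 5 genes of this list were called higher and 2 lower in Hs-578T, against 23.5% and 20.7% of all tested genes. PAPPA2 is among the 5 but was tested only because it is expressed in Hs-578T, so its difference says nothing beyond that. STC2, an inhibitor of PAPPA, had 666 ± 38.2 RPKM in Hs-578T against 0.524 ± 0.0988 in MDA-MB-231, and ADAM12 had 201 ± 51.7 against 0.798 ± 0.106 (SD, n = 2). STC2 was thus of the order of IGFBP4 and IGFBP3 in Hs-578T.

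Other genes whose proteins carry an IGFBP-type domain were 9, of which 8 were tested. In Hs-578T labelled ERK5-ko 2 were called higher, CTGF and CRIM1, and 4 lower, against 9.35% and 3.27% of all tested genes. On adjusted p, 3 passed higher and 4 lower, against 19.7% in either of the 2 directions. HTRA1, a serine protease that also cleaves IGFBP5, fell by 2.27 on the log2 scale there (161 ± 4.76 to 33.1 ± 4.67 RPKM, SD, n = 2, adjusted p = 5.3e-08, limma), and WISP1 and KAZALD1 gave -1.09 and -1.09. WISP2, also among the 4, gave -1.94, from 1.72 ± 0.501 to 0.0701 ± 0.00396 RPKM. The lower of these levels lies under the filter level of 0.5 RPKM. WISP2 was tested because other groups reached that level, so its call adds no support. CTGF, a matricellular protein, rose by 1.23 in that comparison and by 1.01 in MDA-MB-231 MEK5DD. In MDA-MB-231 MEK5DD 3 were called higher, CTGF, NOV and KAZALD1, and 1 lower, HTRA1 at -1.27 (adjusted p = 2.06e-06), against 7.64% and 6.31% of all tested genes. Neither MDA-MB-231 labelled ERK5-ko nor Hs-578T MEK5DD had a call in this list, against 3.87% and 4.38% of all tested genes called in either direction. On adjusted p, 2 and 3 of the 8 genes passed there, against 17.3% and 23.4%.

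Of the ligands and remaining family, a list of 8, only IGFBP1, IGFBPL1 and INSR were tested. INSR, the insulin receptor, which can pair with IGF1R in hybrid receptors, had 15.4 ± 0.698 RPKM in MDA-MB-231 parental controls and 0.0958 ± 0.043 in those of Hs-578T (SD, n = 2). It passed the filter on low values through MDA-MB-231 alone, and in Hs-578T labelled ERK5-ko it had 0.401 ± 0.0436 RPKM, below the filter level. No change was read there, and in MDA-MB-231 MEK5DD it fell by 0.52 (adjusted p = 0.00216), under the fold threshold. IGFBPL1 did not pass in any of the 4 comparisons with parental controls.

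Adaptors and kinases downstream of the receptors formed a list of 22 tested entries, PIK3R2 and PIK3R3 having 2 each. In limma none was called in MDA-MB-231 labelled ERK5-ko or in Hs-578T MEK5DD, against 3.87% and 4.38% of all tested genes. On adjusted p, 3 and 1 entries passed there, against 17.3% and 23.4%. In Hs-578T labelled ERK5-ko 2 entries were called higher, FOXO1 at 0.71 among them, against 9.35% of all tested genes. In MDA-MB-231 MEK5DD 1 was called higher, against 7.64%. It was PIK3R1, a regulatory subunit of PI3K, at 1.05 (adjusted p = 0.000699, limma). Between the parental lines 5 entries were called higher and 4 lower in Hs-578T, against 23.5% and 20.7% of all tested genes. IRS1, which docks to IGF1R, was lower in Hs-578T, at 7.18 ± 1.37 against 25.1 ± 1.53 RPKM (SD, n = 2). IRS2, at 0.00538 ± 0.00761 against 5.46 ± 0.445, was tested only because it is expressed in MDA-MB-231. GRB14, among the 5, was tested only because it is expressed in Hs-578T. The differences of IRS2 and GRB14 say nothing beyond that. Both entries of PIK3R3, another regulatory subunit of PI3K, were higher in Hs-578T, at log2 fold changes of 2.14 and 2.08.

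Among 11 genes of mannose 6-phosphate sorting, the other role of IGF2R, only GNPTG was called in the 4 comparisons with parental controls, lower at -1.32 on the log2 scale in Hs-578T labelled ERK5-ko (adjusted p = 1.27e-06, limma), where IGF2R did not pass. Of all tested genes, 3.87% and 12.6% were called in either direction in MDA-MB-231 and Hs-578T labelled ERK5-ko, and 13.9% and 4.38% in MEK5DD. In MDA-MB-231 MEK5DD, where IGF2R fell, 3 of the 11 passed higher and 2 lower on adjusted p, against 17.5% and 23.8% of all tested genes. The median there was 0.20 over the list against -0.01 over all genes. Of the IGF2 mRNA-binding proteins, 2 of 3 were tested and none was called in the 4 comparisons. On adjusted p, 1 passed lower in each but Hs-578T MEK5DD. The shares of all genes passing lower were 10.4% and 19.7% in MDA-MB-231 and Hs-578T labelled ERK5-ko and 23.8% in MDA-MB-231 MEK5DD.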

How the data were processed

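RNA-seq gave 12 libraries, 6 of each line, whose groups were read from the titles in the labels. The values the authors deposited are RPKM, in which reads are scaled to gene length and library size. The labels name a stranded mRNA kit, and the submitters' processing notes name GRCh38, Trimmomatic 0.32, TopHat2 2.1.1, R 3.3.1 and DESeq2 1.12.4, without their order. The counting tool, its annotation and its use of strand are not given in the sources used here. All 12 value columns were matched to a sample, and 0 were left over.

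Since RPKM values of a gene are multiples of the worth of 1 read, whole reads per gene and library totals were solved for. All 32152 genes gave whole reads (tolerance 0.01), against 0 of 500 with totals 1% off. Totals lay between 20248162 and 27791195 reads, and a chi-square of the reads of replicates, divided by its degrees of freedom, was 2.67 to 38.5, the highest values being those of Hs-578T parental controls and MEK5DD. A floor of 3 reads was used where a group had no reads, and it covers only the counting error of that group.

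Tests covered the 13737 protein-coding genes that reached 0.5 RPKM in 2 libraries or more, among them 7 of the 8 members. IGFBP2 did not pass this filter. log2(RPKM + 0.5) was modelled by limma 3.58.1 (R 4.3.3), with 1 mean for each of the 6 groups, 6 residual degrees of freedom and a variance that follows the mean, and the Benjamini-Hochberg adjustment of p ran over all tested genes of a comparison. The pseudocount of 0.5 shrinks fold changes of genes with low values. With 2 against 2 libraries a two-sided exact permutation test of 1 gene cannot go below 0.333 and was not used. The fit and the recovery of reads were checked on simulated data. Gene lengths, coordinates and overlaps come from GENCODE 29, promoter windows from RefSeq on GRCh38.p14. The remaining steps ran in Python 3.11.15 with pandas 2.3.3, numpy 2.4.6 and scipy 1.17.1, and plots used matplotlib 3.10.9.

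The 8 genes and the lists of related genes were chosen with earlier results of these data known. All 8 are named, and from each other list the genes called in a comparison, at most 4 by the size of the change. Genes named beyond that, such as CRIM1 and KAZALD1 in Hs-578T labelled ERK5-ko, and genes given as not called, such as INSR in MDA-MB-231 MEK5DD, were chosen after their values were seen. The 13 kinds of alternative varied the pseudocount, the filter, the gene types, the scaling, the libraries fitted, the thresholds, the replicate block, the libraries left out and, with limma voom, the recovered reads. The length and GC correction, with and without the block, was chosen after seeing the data. It took natural splines with 5 degrees of freedom out of each library over 13706 tested genes (99.8%). Some entries of the gene and marker lists are counted but not reported here by name.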

Additional observations from a re-analysis of the deposited data

Results flagged for a closer look

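The change against the parental control differed between the lines, by a limma contrast of the MDA-MB-231 change minus the Hs-578T change, for the following members. In libraries labelled ERK5-ko the difference was 2.45 for IGFBP5, 1.83 for IGFBP7, 0.93 for IGFBP6, 0.47 for IGFBP4 and -0.93 for IGF1R on the log2 scale (adjusted p = 1.21e-05, 5.77e-05, 0.000818, 0.0458 and 0.0141). IGFBP7 was at 0.51 for MDA-MB-231 cells but at -1.32 for Hs-578T cells, and the first of these did not pass in 6 of the 12 fits that left out 1 library (adjusted p 0.0611 to 0.196, limma). In MEK5DD the difference was 2.54 for IGFBP3, -1.98 for IGFBP6, -2.24 for IGFBP5 and -0.76 for IGF1R (adjusted p = 3.14e-07, 3.39e-06, 1.68e-05 and 0.035). IGFBP3 and IGFBP6 passed in opposite directions in the lines there, IGFBP3 at 2.07 and -0.47 and IGFBP6 at -1.51 and 0.47, though neither Hs-578T value passed with only the groups compared in the fit (adjusted p = 0.231 and 0.145) and that of IGFBP6 did not without Hs-578T parental replicate 2 (adjusted p = 0.0632). The IGFBP5 differences rest on Hs-578T, since MDA-MB-231 libraries held at most 7 reads. The part of passage in these differences was not tested, and MAP2K5 rose by 3.77 in MDA-MB-231 and by 0.50 in Hs-578T MEK5DD.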

How the results depend on the processing

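Of 1176 values of single members under an alternative, 1093 kept their direction and their side of the threshold, and none of the 24 that turned direction had been called. In MDA-MB-231 labelled ERK5-ko the number of members called was 0 and became 1 with quantile normalization, 3 with no fold threshold and 2 with a fold below 1/1.5. In Hs-578T MEK5DD it was 3 and became 1 with only the groups compared in the fit and 5 with no fold threshold. Leaving out 1 library at a time gave 0 to 1 and 1 to 3 calls in these comparisons, 5 to 5 in Hs-578T labelled ERK5-ko, 3 to 4 in MDA-MB-231 MEK5DD, 3 to 5 for either difference between lines and 5 to 6 between the parental lines; a group left with 1 library was assumed to vary like the others.

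The value of IGF1R in MDA-MB-231 labelled ERK5-ko turned to 0.023 with median-ratio scaling, 0.0285 with quantile normalization and 0.0788 with the length and GC correction, with or without the block. In MDA-MB-231 MEK5DD it turned to 0.0356 under quantile normalization and to 0.0395 under that correction, with or without the block. The difference between lines of IGFBP3 in libraries labelled ERK5-ko was -0.0051 with a pseudocount of 0.1, -0.0834 with quantile normalization, -0.0258 with limma voom and -0.0016 with the correction. With 1 library left out the direction turned for IGF1R in MDA-MB-231 labelled ERK5-ko (-0.14 to 0.057) and MEK5DD (-0.158 to 0.0393), IGF2R in Hs-578T labelled ERK5-ko (-0.54 to 0.37) and MEK5DD (-0.65 to 0.26) and in the difference between lines for ERK5-ko (-0.18 to 0.73), IGFBP7 in Hs-578T MEK5DD (-0.0537 to 0.362) and IGFBP3 in the difference between lines (-0.0432 to 0.0491). The cause was not tested.

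The replicates carry numbers that follow passages, and the sources used here do not say that a number marks a shared batch. Deviations of same-numbered replicates correlated at 0.107 to 0.541 among the 6 pairs of groups of the same line. In a fit with a replicate block, the difference between lines of IGF2R in MEK5DD passed (-0.86, adjusted p = 0.0198, limma), and no other call changed. With the block and the length and GC correction together, IGF2R passed at 0.31 in MDA-MB-231 labelled ERK5-ko (adjusted p = 0.0451), at -0.30 in Hs-578T labelled ERK5-ko (adjusted p = 0.0349) and in the difference between lines there (0.61, adjusted p = 0.0059), and the difference of IGFBP7 in MEK5DD passed (-0.37, adjusted p = 0.0311). Depth limits IGFBP2 in all groups and IGFBP5 in MDA-MB-231.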
